A study of Homo sapiens with 4 samples.

Results

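A miRNA hairpin carries 2 mature arms, named 5p and 3p after the end of the hairpin they lie on, and the arm with fewer reads is called the minor arm here. Minor arms were examined in small RNA libraries made from the extracellular vesicles (EVs) of PC3 cells, a human prostate cancer line derived from a bone metastasis. Names numbered below 1000, let-7 included, were taken where the table listed both arms under the same stem name, and in each pair the arm with the lower count, summed over both libraries, was kept if it had at least 2 reads. Of 344 such pairs, 132 had no read on either arm and 7 were tied with reads. Where one arm was lower, it had 0 reads in 127 pairs and 1 read in 27, and the remaining 51 minor arms are described here, out of 2588 mature miRNA names in the table. Because the counts themselves chose the members, their counts and ratios are given as a description and without a test.

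No treatment is named for the PC3 cells whose vesicles were sequenced. The study collected vesicles from medium with exosome-free serum and sequenced their RNA in 2 biological replicates. There was a single group, so no comparison between conditions was possible, and vesicles of 1 cell line stand for prostate cancer as a model. The libraries had 154185 and 113185 miRNA counts. The headers of both columns are identical, so the libraries are numbered by their order in the table and could not be tied to a labelled replicate. A single read was worth 6.49 CPM (miRNA reads scaled to a total of 1000000 per library) in library 1, called the first here, and 8.84 in the second. Over the 208 names with at least 10 summed reads, chi-square against counting noise was 21.7 per degree of freedom, so the columns were not the same library counted again. Among miRNAs known from epithelia, miR-182-5p and miR-183-5p were frequent (2235 and 956 reads in the first, 1680 and 701 in the second library). Of the other 4 on that list, miR-200c-3p had 11 and 4 reads, miR-141-3p 0 and 1, and miR-205-5p and miR-203a-3p none. Of 7 miRNAs known from blood, 5 were at 0 in both libraries, and the list summed to 6 and 8 reads. miR-122-5p, known from liver and also found in serum, had 39 and 26 reads, and the part of serum in the minor arms was not tested.

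In the cell, Drosha and Dicer cut the hairpin into a duplex of the 5p and the 3p strand. An Argonaute protein keeps 1 strand as the guide that recognises target mRNAs and usually discards the passenger strand. The guide pairs with its targets mainly through its seed, bases 2 to 8, so the arms of a hairpin have different targets. For some hairpins both strands are retained, and the use of an arm can vary between tissues. Small RNA sequencing measures the reads of each arm and not its loading into Argonaute.

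Sequences of the arms were taken from the RefSeq table of GRCh38.p14, which held both arms of 44 of the 51 hairpins. The 4 hairpins with the highest arm ratios among those with at least 20 minor arm reads are shown first, with the seed in capitals, because their minor arms add seeds that the major arms lack.
miR-423-3p (minor): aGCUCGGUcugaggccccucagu
miR-423-5p (major): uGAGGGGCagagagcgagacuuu
miR-9-3p (minor): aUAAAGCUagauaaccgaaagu
miR-9-5p (major): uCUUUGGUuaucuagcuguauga
miR-361-5p (minor): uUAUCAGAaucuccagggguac
miR-361-3p (major): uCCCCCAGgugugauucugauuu
miR-30e-3p (minor): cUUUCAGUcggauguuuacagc
miR-30e-5p (major): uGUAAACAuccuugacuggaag

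Strongly one-sided hairpins are represented by miR-100, miR-99b and 3 members of the let-7 family. In these, related major arms share a seed, and the minor arms either share one too (let-7a-3p and let-7b-3p) or differ inside it.
miR-100-3p (minor): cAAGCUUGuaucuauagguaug
miR-100-5p (major): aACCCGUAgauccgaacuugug
miR-99b-3p (minor): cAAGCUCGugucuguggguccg
miR-99b-5p (major): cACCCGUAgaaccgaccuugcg
let-7a-3p (minor): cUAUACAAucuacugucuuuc
let-7b-3p (minor): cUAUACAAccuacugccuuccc
let-7d-3p (minor): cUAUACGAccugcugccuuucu
let-7a-5p (major): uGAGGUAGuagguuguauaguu
let-7b-5p (major): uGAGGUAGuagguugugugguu
let-7d-5p (major): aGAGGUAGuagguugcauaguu

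The minor arms described here were a small part of the vesicle miRNA counts. The 51 together summed to 668 reads in library 1 and 375 in library 2, or 0.433% (95% Wilson interval 0.402 to 0.467%) and 0.331% (0.299 to 0.367%) of all miRNA counts. Their major arms had 31582 and 19567 reads, or 20.5% and 17.3% of all miRNA counts. Minor arms therefore held 1.98% ± 0.135 (SD, n = 2) of the reads of their own hairpins. The single arm miR-423-3p accounted for 50.7% and then 45.3% of the minor arm reads, and without the miR-423 hairpin the share was 1.05% ± 0.00453 (SD, n = 2). The intervals take in counting error alone, since reads copied by PCR need not stem from separate molecules.

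The arm ratio, the reads on the minor arm divided by those on the major arm, ranged over nearly 3 orders of magnitude. Its median over the 51 hairpins was 0.1, from 0.00109 for miR-151a to 0.822 for miR-30e. Over the same hairpins the median was 0.0667 in the first library alone and 0.0345 in the second alone, where minor arms without a read in that library count as 0. The ratio was at least 0.5 in 9 hairpins, from 0.1 to under 0.5 in 17, from 0.01 to under 0.1 in 16 and under 0.01 in 9. Low ratios can be seen only for hairpins with many reads, since 2 reads against 1000 already give a ratio of 0.002. The 8 hairpins with at least 1000 reads on the major arm had ratios from 0.00109 to 0.00523, and the 43 others had a median of 0.152. Which arm was minor was evenly divided, with 26 minor arms on the 5p and 25 on the 3p side. Over all pairs in which one arm was lower, this was the 3p arm in 116 (56.6%) and the 5p arm in 89.

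**Figure D1:**
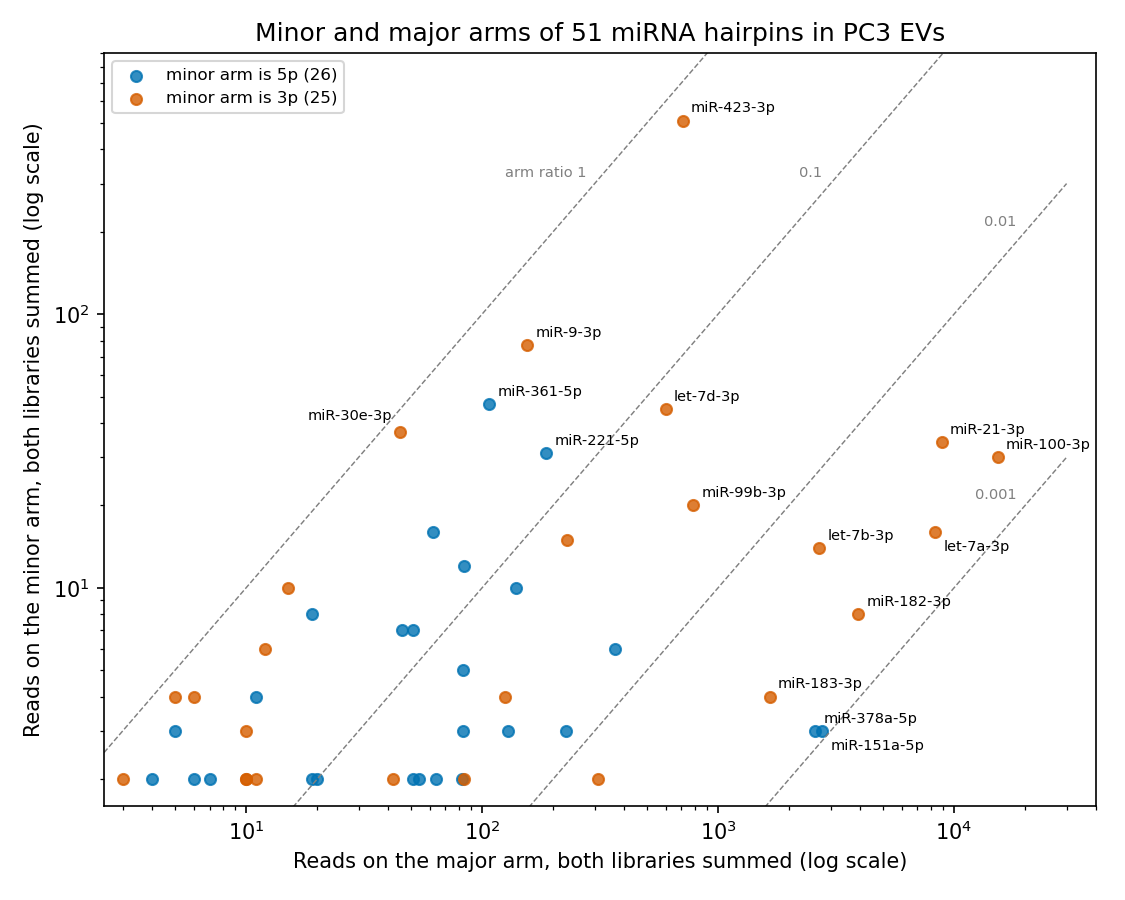
Reads on the minor arm (y axis) against reads on the major arm (x axis) of the 51 hairpins, both libraries summed and both axes on a log scale, with colour for the arm that is minor and dashed lines of equal arm ratio. miR-423-3p stands highest with 509 reads, and the 8 hairpins with over 1000 major arm reads all lie below a ratio of 0.01.

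The 9 minor arms with at least 20 summed reads, of which 7 were 3p arms, held 830 of the 1043 minor arm reads. The hairpin of miR-423 (chr17:30117079-30117172, plus strand, overlapping an exon of NSRP1) was the richest. miR-423-3p had 339 reads in library 1 and 170 in library 2, against 432 and 277 on miR-423-5p. The arm ratios were 0.785 and 0.614, a mean of 0.699 ± 0.121 (SD, n = 2), and the minor arm was the lower of the arms in both libraries. At 1850 CPM ± 493 (SD, n = 2), it was the only minor arm above 1000 CPM.

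miR-9, a regulator of neural development, is encoded by 3 hairpins on chromosomes 1, 5 and 15, which share both mature arms, so reads cannot be assigned to a locus. miR-9-3p had 52 and 25 reads against 110 and 45 on miR-9-5p, and the ratios of 0.473 and 0.556 were close in the libraries. miR-361 (chrX:85903636-85903707, minus strand, in an intron of CHM) gave the most abundant of the 5p minor arms. miR-361-5p had 37 and 10 reads against 75 and 32 on miR-361-3p, with ratios of 0.493 and 0.312. In both hairpins the minor arm was lower in each library, and the Wilson intervals of its share overlapped between libraries.

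miR-30e (chr1:40754355-40754446, plus strand, in an intron of NFYC) was the hairpin nearest to equal reads on its arms among those with at least 10 minor arm reads. miR-30e-3p had 22 and 15 reads against 35 and 10 on miR-30e-5p, so it was the lower arm in the first library and the higher in the second, with ratios of 0.629 and 1.5. This was the only member that exceeded its major arm in a library, and its share of the pair was 38.6% (95% Wilson interval 27.1 to 51.6%) and then 60.0% (40.7 to 76.6%). The 5p arms of miR-30e and miR-30a differ by a single edit, as do their 3p arms. On miR-30a the 5p arm had 68 and 37 reads and the 3p arm 1 and 0, so the 3p arm that was frequent on miR-30e was nearly absent there. How many mismatches the mapping allowed is not given in the sources used here, and a read moved between these names would change both ratios. miR-30d, with 1804 and 1102 reads on its 5p arm, had 1 and 0 on the 3p arm, and miR-30b had 9 and 1 on the 5p and 1 and 1 on the 3p arm.

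miR-21, an oncomiR that represses tumour suppressor mRNAs and the miRNA that the study followed into osteoblasts, was strongly one-sided. miR-21-3p had 14 and 20 reads against 5831 and 3031 on miR-21-5p, or ratios of 0.00240 and 0.00660. Unlike most abundant members, the minor arm had more reads in the second library, which is the shallower. The same held for miR-100 (chr11:122152229-122152308, minus strand, in an intron of MIR100HG), a family known to target mTOR: miR-100-3p had 11 and 19 reads against 9909 and 5405 on miR-100-5p, with ratios of 0.00111 and 0.00352. For both hairpins the Wilson intervals of the minor arm share did not overlap between libraries, while for the other 14 of the 16 members with at least 10 reads they did. These intervals are not adjusted for the number of hairpins, and their overlap was not counted over all pairs. Fisher's exact test over all 371 pairs with a read, described below, called neither hairpin (adjusted p = 0.654 for each).

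**Figure D2:**
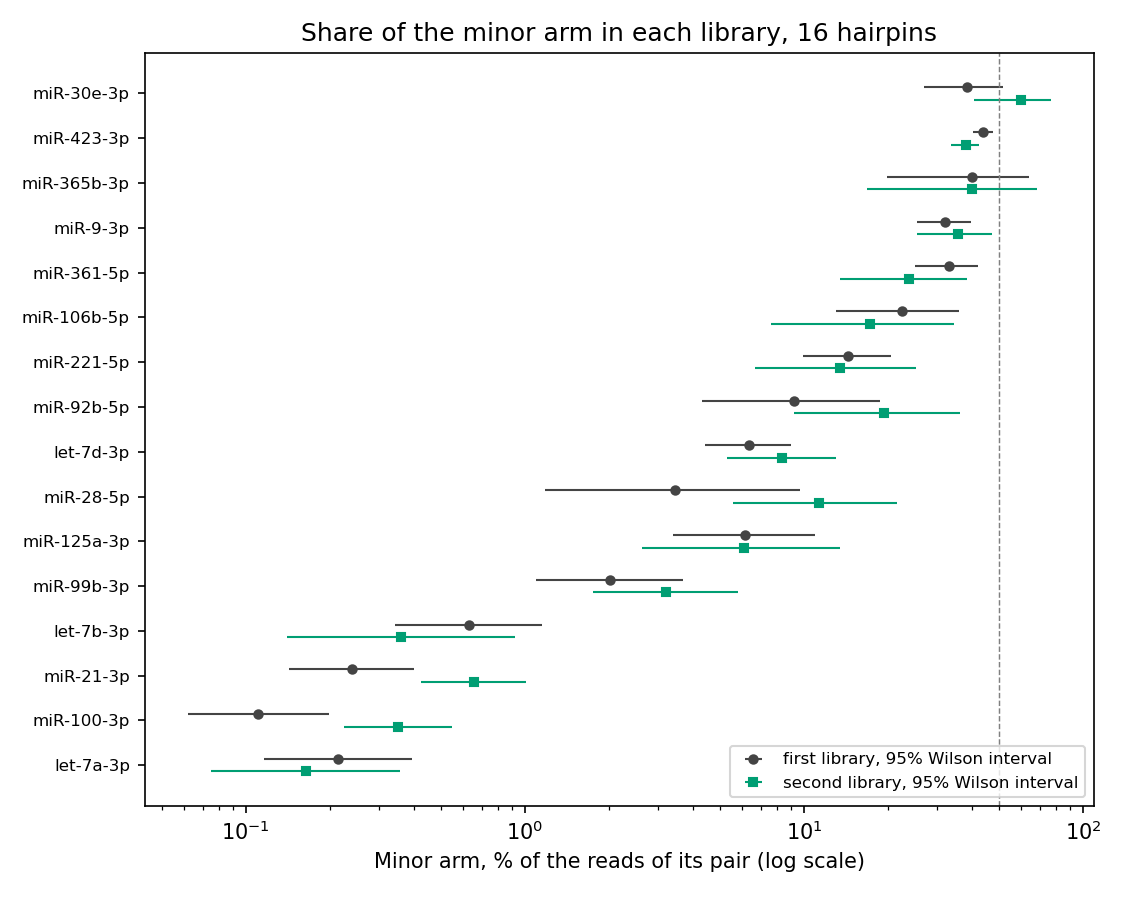
Share of the minor arm in the reads of its pair (x axis, percent, log scale) for the 16 minor arms with at least 10 summed reads, in the first library (circles) and the second (squares), with 95% Wilson intervals and a dashed line at equal reads. Shares run from 0.111% for miR-100-3p in the first library to 60.0% for miR-30e-3p in the second, and the intervals of the libraries are apart for miR-21-3p and miR-100-3p. The intervals are not adjusted for the number of hairpins, and the adjusted exact test called neither of these pairs.

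To ask whether arm shares differed between the libraries by more than counting error, Fisher's exact test (two-sided) was run on arm by library for all 371 pairs of the table with a read, names above 1000 included. The sums that chose the members are fixed in this test, which compares 2 libraries and no conditions. After Benjamini-Hochberg adjustment 0 of the 51 pairs were called, against 0% of all pairs, and a chi-square test also called 0. Setting the minor arm against all other miRNA counts in place of its partner asks about its level and not its arm share. There 1 pair, miR-423, was called (adjusted exact p = 0.0156). Levels differed between the libraries beyond counting error (chi-square 21.7 per degree of freedom), a spread which that p does not take in. In the test of arm shares, 5 of the 371 pairs (1.35%) had an unadjusted p under 0.05. Each of the 5 was a member, and they made up 9.80% of the 51 members. These were miR-100 (exact p = 0.00194, adjusted p = 0.654), miR-21 (exact p = 0.00353, adjusted p = 0.654), miR-27a (exact p = 0.0232), miR-574 (exact p = 0.0248) and miR-423 (exact p = 0.0467), the last 3 with an adjusted p of 1. Pairs with few reads cannot reach such a p, and the rule removed most of those, so no difference between members and other pairs can be read from this count. The minor arm share was higher in the second library for miR-100, miR-21, miR-27a and miR-574 and lower for miR-423. miR-574-5p had 2 and 5 reads against 38 and 13 on miR-574-3p, and miR-27a-5p had 0 and 3 against 163 and 63 on miR-27a-3p.

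The let-7 miRNAs restrain growth and control developmental timing, and 3 of 8 listed hairpins with a read gave a member, in each case the 3p arm. let-7d-3p was the most frequent, with 28 and 17 reads against 413 and 186 on let-7d-5p and ratios of 0.0678 and 0.0914. let-7a-3p had 10 and 6 reads against 4661 and 3652 on let-7a-5p, and let-7b-3p had 10 and 4 against 1575 and 1103 on let-7b-5p. The ratio of let-7d thus lay above 0.06 and those of let-7a and let-7b below 0.007 in both libraries. let-7a-5p can come from 3 hairpins and let-7a-3p from 2 of them in the RefSeq table, so the ratio of let-7a pools loci. In addition let-7a-5p is a single edit from let-7f-5p, which had 3145 and 2480 reads. The let-7d hairpin lies at chr9:94178834-94178920 and the let-7a-1 hairpin at chr9:94175957-94176036, both on the plus strand and overlapping exons of MIRLET7A1HG. On let-7i-3p and let-7g-3p there was no read against 2297 and 1721 summed reads on their 5p arms, which allows ratios of up to 0.00131 and 0.00174 at 3 reads.

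Some other listed families or clusters also held hairpins with different ratios, while miR-182 and miR-183, given below, had similar ones. How often hairpins of a family differed was not counted. In the family of miR-10, miR-99 and miR-100, 2 of 5 listed hairpins with a read had a member. miR-99b-3p had 10 reads in each library against 485 and 302 on miR-99b-5p, with ratios of 0.0206 and 0.0331, while miR-99a-3p had none against 136 and 65 and miR-10b-3p had 1 and 0 against 192 and 120. At 3 reads, the absence on miR-99a-3p allows a ratio of up to 0.0149. The miR-99b hairpin (chr19:51692612-51692681) and that of miR-125a (chr19:51693254-51693339), both on the plus strand within SPACA6, lie next to each other. miR-125a-3p had 10 and 5 reads against a sum of 229 on miR-125a-5p, and its ratios in the libraries were 0.0658 and 0.0649.

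miR-221 and miR-222 are transcribed together from the X chromosome and repress the cell cycle inhibitor CDKN1B. miR-221-5p had 24 and 7 reads against a sum of 187 on miR-221-3p, with ratios of 0.169 and 0.156 in the libraries. On miR-222-5p there was no read against 473 and 257 on miR-222-3p, which at 3 reads allows a ratio of up to 0.00411. A minor arm was thus read for miR-221 and not for miR-222, although miR-222-3p had more reads than miR-221-3p in both libraries.

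The clusters of miR-17 to miR-92a, miR-106b to miR-25 and miR-106a to miR-363 promote proliferation. They were listed together with their relative miR-92b, which lies outside them on chromosome 1, and 6 of the 9 listed hairpins with a read had a member, 3 on each arm with miR-92b among the 5p arms. In the miR-106b hairpin (chr7:100093993-100094074, minus strand, in an intron of MCM7) the minor arm was 5p: miR-106b-5p had 11 and 5 reads against 38 and 24 on miR-106b-3p. Its seed AAAGUGC was shared by 7 other names in the table, among them miR-17-5p and miR-93-5p, which were the major arms of their hairpins.
miR-106b-5p (minor): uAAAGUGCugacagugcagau
miR-93-5p (major): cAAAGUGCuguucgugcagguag
miR-17-5p (major): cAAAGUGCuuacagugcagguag
Thus hairpins that share a seed on the 5p arm did not share the order of their arms. miR-92b-5p had 6 and 6 reads against 59 and 25 on miR-92b-3p, miR-25-5p had 5 and 1 against 238 and 127, and miR-93-3p had 3 and 1 against 91 and 34. miR-17-3p had 1 read in each library against 232 and 79 on miR-17-5p, and miR-18a had 2 and 2 on the 3p against 2 and 3 on the 5p arm.

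In the cluster of miR-183, miR-96 and miR-182, known for its role in sensory organs and raised in many carcinomas, the minor arms were among the least frequent relative to their partners. miR-182-3p had 3 and 5 reads against 2235 and 1680, and miR-183-3p had 1 and 3 against 956 and 701. The summed ratios of 0.00204 and 0.00241 were close to each other. The 2 hairpins of the miR-200 family with a read gave no member, nor did the listed hairpins of miR-26, miR-29, miR-34 and miR-181.

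Of 20 hairpins known from general knowledge for the use of both arms, 18 had a read and 11 gave a member (61.1%), compared with 24.1% of the 212 hairpins with a read. A member needs at least 2 reads on its lower arm, so these shares depend on depth. In the 127 pairs with a lower arm at 0, the major arm had a median of 2 reads. No greater use of both arms in the listed hairpins can therefore be read from these shares. The median ratio of these 11 was 0.0719, and that of all 51 was 0.1. The group held miR-423, miR-9, miR-361 and miR-30e, with summed ratios from 0.439 (miR-361) to 0.822 (miR-30e), as well as strongly one-sided hairpins. In miR-151a, whose 5p arm had 2 and 1 reads against 1466 and 1297 on the 3p arm, almost all reads lay on 1 side, and miR-140-5p had 1 read in each library against 53 and 29 on miR-140-3p. miR-28-5p had 3 and 7 reads against 84 and 55 on miR-28-3p, with ratios of 0.0357 and 0.127. The list was drawn up with earlier results of these data known and is not independent of them.

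The study listed miRNAs found both in its PC3 EVs and in EVs of patients' plasma or urine. Among their hairpins, miR-21, miR-574, miR-501 and miR-625 had a minor arm among the members. miR-501-5p had 5 and 2 reads against 35 and 11 on miR-501-3p, and miR-625-5p had 2 and 0 against 38 and 16 on miR-625-3p. The lower arm was at 0 in both libraries for miR-143, miR-196a and miR-301a, whose higher arms had at most 3 summed reads, and miR-331-5p had 0 and 1 against 2 and 0 on miR-331-3p. At such depth the order of the arms cannot be told. The study's list names both arms of miR-196a. In the counts used here, miR-196a-3p had 0 reads in each library and miR-196a-5p had 1 and 0.

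**Figure D3:**
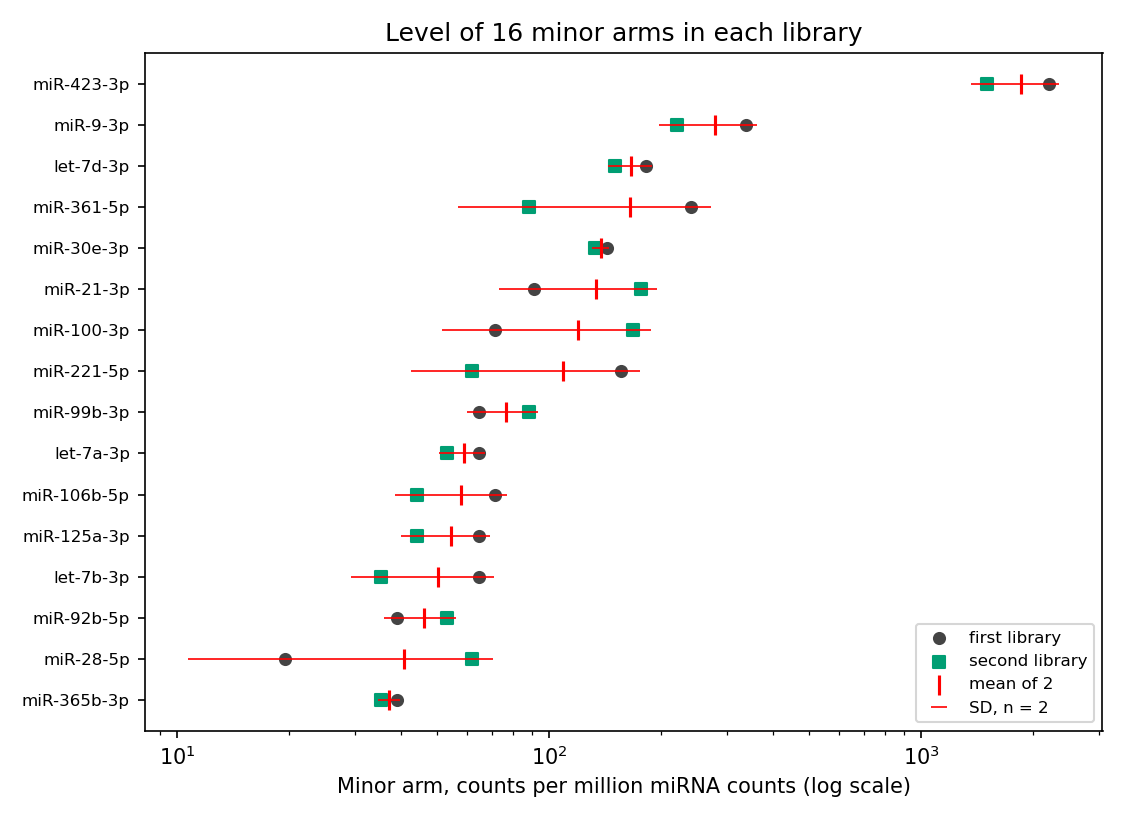
Level of the 16 minor arms with at least 10 summed reads in CPM (x axis, log scale), with circles for the first library, squares for the second, a red tick for the mean and a red line for the SD (n = 2). The mean is 1850 CPM for miR-423-3p and from 37.1 to 279 CPM for the others, and miR-21-3p, miR-100-3p, miR-99b-3p, miR-92b-5p and miR-28-5p are higher in the second library.

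The other 35 minor arms had from 2 to 8 reads, of which 21 were 5p and 14 were 3p arms, and 16 had exactly 2. miR-335-3p, with 4 and 2 reads, equalled miR-335-5p, with 10 and 2, in the second library. A minor arm was equal to its major arm in a library in 7 hairpins, with at most 18 summed reads on both arms together. The pairs nearest to a tie after miR-30e (0.822) were miR-18a (0.8) and miR-423 (0.718), followed by miR-365b, miR-15b and miR-135b at 0.667. Of these, miR-15b-3p had 3 and 1 reads against 5 and 1, and miR-135b-3p had 2 and 0 against 2 and 1.

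The remaining members can be grouped by how one-sided they were. With a major arm over 1000 reads, only miR-378a-5p joined those already described, with 1 and 2 reads against 1570 and 1005. Ratios under 0.1 on fewer major arm reads were found for miR-22, miR-148b, miR-342, miR-330, miR-532, miR-425 and miR-500a. miR-342-5p was the most frequent of them, with 4 and 1 reads against 55 and 28. Ratios from 0.1 to 0.6 were found for miR-197, miR-505, miR-664a, miR-873, miR-345, miR-576, miR-582, miR-149, miR-339, miR-424 and miR-130b, whose major arms had at most 20 summed reads. miR-197-5p led this set, with 3 and 5 reads against 12 and 7 on miR-197-3p. miR-424 belongs by its 5p seed to the miR-15 and miR-16 family, yet miR-424-5p was the minor arm, with 0 and 2 reads against 5 and 2.

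In all, 36 members had a read in both libraries, 12 in the first only and 3, miR-27a-5p, miR-149-3p and miR-424-5p, in the second only. At the edge of the rule, the 16 minor arms with 2 reads stood against a median of 19.5 reads on the major arm, the 27 lower arms with 1 read against 16 and the 127 with 0 reads against 2. With at least 100 reads on the higher arm, the lower arm was at 0 in 17 pairs and at 1 in 5. The most abundant of these were miR-30d, with 1 read against 2906, and miR-191, with 0 against 2793.

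A few names could not be told apart by sequence. miR-365b-3p is identical to miR-365a-3p, and each carried 6 reads in the first and 4 in the second library. The sequence of miR-500a-5p holds or is held in that of miR-500b-5p, and each had 2 and 0. The ratio of 0.667 in both libraries for miR-365b rests on a minor arm that both hairpins make, set against 9 and 6 reads on miR-365b-5p. Of the 45 members with a sequence, 34 had a seed that no other name in the table with a sequence carries.

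Sequence was not used to choose the members. Fewer minor than major arms began with uracil, and more began with adenine. Argonaute is known to favour uracil or adenine at the 5′ end of its guide. These bases went in opposite directions here, so the count of uracil alone does not measure that preference. Among the 44 hairpins with both sequences, 11 minor arms (25%, 95% Wilson interval 14.6 to 39.4%) and 22 major arms (50%, 35.8 to 64.2%) began with uracil, compared with 36.1% of the 568 arms of pairs with names below 1000. In 17 hairpins only the major arm began with uracil, in 6 only the minor arm, in 5 both and in 16 neither. Adenine opened 18 minor and 9 major arms, cytosine 12 and 9, and guanine 3 and 4. The shares of these 3 bases over all arms were not computed, nor was that of uracil for each side. Where the minor arm was 3p, 4 of 22 minor and 13 of 22 major arms began with uracil, and where it was 5p, the numbers were closer, at 7 of 22 and 9 of 22. Hairpins are not replicates, and related hairpins share sequence, so no p is given.

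**Figure D4:**
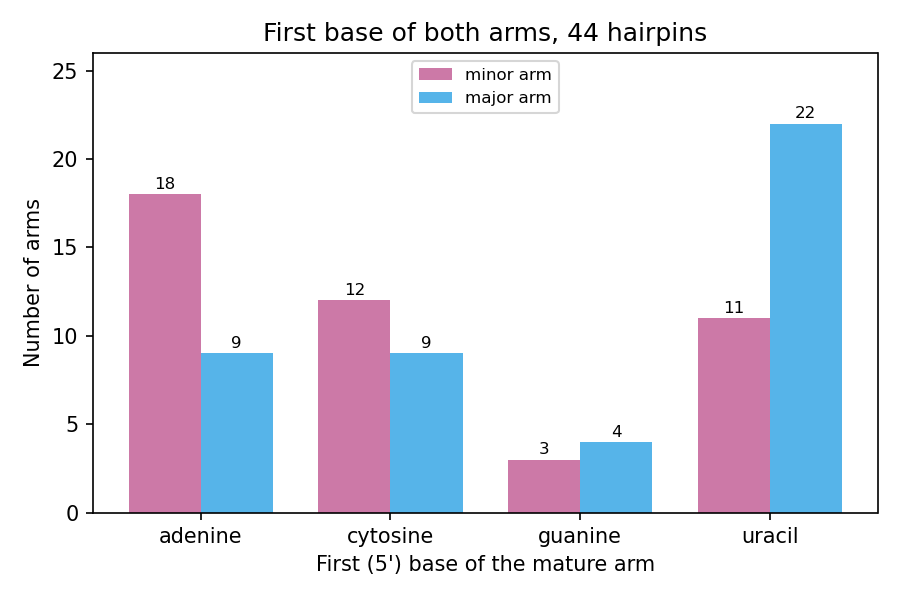
Number of arms (y axis) by the first base of the mature sequence (x axis) for the minor and the major arm of the 44 hairpins with both sequences. Uracil opened 11 minor and 22 major arms, and adenine 18 minor and 9 major arms.

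Base composition showed no single direction, while the major arm was more often the longer where the minor arm was 3p. The number of adenines and uracils in the first 4 bases, a simple measure of how easily the end of the duplex opens, was higher on the major arm in 17 hairpins, higher on the minor arm in 15 and equal in 12. Among the 13 hairpins with at least 10 minor arm reads it was higher on the major arm in 1 and on the minor arm in 9. The GC content was higher on the minor arm in 22 hairpins and on the major arm in 19. The direction depended on the side, with the 3p arm richer in GC in 15 of 22 hairpins where it was minor and in 13 of 22 where it was major. Minor and major arms both had a median length of 22 bases, and the major arm was the longer in 18 hairpins and the minor in 7. Where the minor arm was 3p, it was the longer in 0 of 22 hairpins and the shorter in 10, and where it was 5p, it was the longer in 7 and the shorter in 8. Length and GC content of 5p and 3p arms were not compared over all pairs. A general difference between the sides therefore cannot be told apart from a trait of minor arms.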

How the data were processed

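Small RNA of PC3 EVs was sequenced in 2 biological replicates. The values, as deposited by the authors, are counts of reads per mature miRNA name with no scaling, made with Cutadapt for trimming and SHRiMP for mapping. Versions, the mismatches allowed and the handling of reads that fit several names are not given in the sources used here, and each could move reads between arms of related hairpins. The total RNA libraries hold no mature arms and were not used here. Arms were paired by stem name, and members, family lists and tests were chosen with earlier results of these data known. Named are minor arms with at least 20 reads, the 5 nearest to a tie, the 5 with the highest ratio among those with at least 10 reads, pairs called between libraries (pairs past an unadjusted p of 0.05 were added after their values were seen), hairpins the study names and family members. CPM used totals of 154185 and 113185 counts, so 3 reads are 0.00195% and 0.00265%. Shares carry 95% Wilson intervals. Fisher's exact tests were adjusted by Benjamini-Hochberg. They were tried on simulated data with counting error alone, where detection was required only for pairs with many reads. Sequences and hairpin positions came from RefSeq (GRCh38.p14), with overlaps from GENCODE release 44. Python 3.11.15, scipy 1.17.1, pandas 2.3.3, numpy 2.4.6, matplotlib 3.10.9 and edgeR 4.0.16 (TMM factors only) were used. Alternatives were other minimums, single libraries, other scalings and another test.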

Additional observations from a re-analysis of the deposited data

How the results depend on the processing

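No paired analysis was possible because there is 1 condition and the columns of the table carry no replicate numbers. The number of minor arms was 78 with a minimum of 1 read and 16 with a minimum of 10, and from 25 to 38 with each library alone, against 51. With a read required in both libraries it was 36, and choosing the lower arm by mean CPM gave the same 51 members. The median arm ratio of 0.1 became 0 without a minimum, because the lower arm mostly had no read, and was from 0.0345 to 0.0667 with each library alone, where members without a read in that library count as 0. The share of minor arms that are 3p was 68.8% with at least 10 reads, against 49.0%. No pair was called for arm share between libraries under the chi-square test or among 91 pairs with at least 20 reads (smallest adjusted exact p = 0.160). With the minor arm set against all other miRNA counts, a question of level and not of arm share, 1 pair was called, miR-423 (adjusted exact p = 0.0156). The median level of 14.1 CPM was 80.1 without the 10 most abundant names in the total. TMM and that total shifted the difference between libraries by 0.17 and 0.30 on the log2 scale, and 19 minor arms were higher in the second library by totals, 21 by TMM and 23 without the 10 names. The other alternatives for ratio, level and first base moved the values by less than the spread between libraries or the Wilson interval. Most minor arms have under 10 reads, so depth limits their ratios.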

Other observations

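Arms whose names carry a copy number were outside the rule, since their partner is listed without it. Of 34 such names below 1000, 9 had at least 2 reads. The most frequent were chosen after their values were seen. miR-125b-1-3p had 38 and 21 reads against 234 and 96 on miR-125b-5p, a summed ratio of 0.179, while miR-125b-2-3p, the 3p arm of the other hairpin, had 5 and 0. miR-24-2-5p had 20 and 13 reads against 597 and 291 on miR-24-3p (0.0372), and miR-16-2-3p had 16 and 3 against 32 and 5 on miR-16-5p (0.514). A partner arm that several hairpins make pools their reads, so the ratio of the hairpin itself may be higher.

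At the other end, let-7f-1-3p had 1 read in each library against 3145 and 2480 on let-7f-5p, and miR-92a-1-5p had 0 and 2 against 1782 and 920 on miR-92a-3p. Names with the same sequence carried the same counts in both of the groups with a read: miR-365a-3p with miR-365b-3p, and miR-518d-5p, miR-520c-5p and miR-526a with 3 reads each in the first and 2 in the second library. Sums over such names would count the same reads more than once if each read was assigned to all of them, which was not tested.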
